A study of Mus musculus with 2 samples.

Results

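Pmp22, Mbp and Ngfr, 3 genes best known from myelinating glia, were described together with the glial genes S100b and Sox10 in 2 cell populations sorted from mouse dorsal skin. These 5 genes were chosen by their log ratios and signals on the same 2 arrays, so that their ratios are a description and carry no test. All 10 probes that the array files name for them were taken, of 41174 probes in all, and they occupy 28 spots on each array. For 3 of the 5 genes a probe passed the detection filter and entered the comparison of 6195 genes.

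One population came from Lgr5-EGFP-ires-CreERT2 mice and the other from Lgr6-EGFP-ires-CreERT2 mice, both knock-in lines that carry the reporter and an inducible Cre recombinase. Green fluorescent protein was thus made under the Lgr5 or the Lgr6 promoter, and only the brightest cells were collected, here called Lgr5-high and Lgr6-high. Lgr5 and Lgr6 are related receptors for R-spondins that mark stem cells of the hair follicle. Each sort pooled 3 mice, and 150 ng of total RNA was amplified and labelled. The labels give no age or sex. Both RNAs were hybridised together on 2 two-colour arrays, with Lgr5-high in Cy3 and Lgr6-high in Cy5 on array 1 and the dyes exchanged on array 2. The labels name no separate RNA pools for the arrays, so the pair counts as 1 replicate, and each SD below covers only the spread of 2 hybridisations.

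Myelin is the stacked membrane that Schwann cells wrap around peripheral axons. Pmp22 is a membrane protein of compact peripheral myelin that epithelia also make, where it is found at cell junctions. Mbp lies on the cytoplasmic face of the membrane and holds the layers of myelin together, and its locus also produces longer Golli transcripts from an upstream start. Ngfr is the neurotrophin receptor of the tumour necrosis factor receptor family, found on Schwann cells and also in the outer root sheath of the hair follicle. S100b is a calcium-binding protein of Schwann cells and melanocytes, and Sox10 is the transcription factor that both of these neural crest lineages depend on.

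The probes are 60 bases long. Their sequences are shown because the result differs between probes that the array files name for the same gene. For Pmp22 these probes lie on opposite strands. For Ngfr the probe A_52_P236448 lies at chr11:95430211-95430270 and A_51_P384968 at chr11:95435537-95435596, both on the minus strand of build mm9 and 5326 bases apart. In the target transcript they start at base 3270 and at base 878. The first 30 bases of the former and the whole of the latter read, 5′ to 3′:
Ngfr A_52_P236448: tccagctggcgactatgagatccagacctc
Ngfr A_51_P384968: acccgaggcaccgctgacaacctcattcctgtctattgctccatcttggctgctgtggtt

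For Pmp22 the probe A_51_P258529 lies at chr11:62972914-62972973 on the plus strand and starts at base 1666 of the RefSeq transcript. The other, A_52_P1067763, was designed on a cDNA clone from mouse embryo. It lies 29028 bases away at chr11:62943886-62943945 on the minus strand, and shares none of its listed transcripts with the former. Their first 30 bases read:
Pmp22 A_51_P258529: gccaccaactgtagatgtatatacggtgtc
Pmp22 A_52_P1067763: gttccatattattttgttttttgacagtag

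S100b had 1 probe, at chr10:75722709-75722768 on the plus strand, and Sox10 had 2 on the minus strand of chromosome 15, starting at bases 2356 and 947 of the target transcript. The S100b probe and the Sox10 probe at base 947 are shown whole, as examples of probes that were not measured:
S100b A_51_P208083: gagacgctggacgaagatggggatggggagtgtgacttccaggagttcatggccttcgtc
Sox10 A_52_P192625: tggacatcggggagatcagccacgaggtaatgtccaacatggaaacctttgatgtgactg

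The 3 Mbp probes lie on the plus strand of chromosome 18. Probe A_52_P604195, at 82727929 to 82727988, was designed on transcript variant 8 and starts at its base 4653. The other probes, A_52_P329451 and A_51_P349205, were designed on transcript variant 7 and lie 14337 and 26826 bases further along the locus. Neither shares a listed transcript with A_52_P604195, whereas they share 2 with each other. A_52_P329451 covers 2305 bases of the genome with its 60 bases, so it crosses at least 1 intron. Exon and UTR annotation of build mm9 was not used here.

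Each signal below is the mean brightness of a spot in scanner units before any correction. Spots that match no transcript also give a signal. The 153 negative control spots had median signals of 92.8 and 91.9 in Cy3 on arrays 1 and 2, with highest values of 108 and 114. In Cy5 their medians were 153 and 152 and their highest values 169 and 174. A probe counts as above background where the scanner software marked at least 50% of its spots so, and as measured where 1 of the populations passed on both arrays. Signals of the 2 populations in the same dye come from different arrays and are not normalised between them. Over the 4483 genes above background in all 4 measurements, signals above the negative control median differed between the arrays. The median log2 of Lgr6-high over Lgr5-high was 0.61 in Cy3 and -0.54 in Cy5. Ratios were computed after background correction (normexp, with 50 added to every signal) and loess normalisation. They are given as log2 of Lgr6-high over Lgr5-high, where 1 stands for a 2-fold difference, as the mean ± SD of the 2 arrays. A gene was called at a mean of at least 1 in either direction with at least 0.5 in that direction on each array.

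Pmp22 stood higher in the Lgr6-high cells in both dyes. At probe A_51_P258529 the Cy3 signal was 4142 for Lgr6-high and 361 for Lgr5-high. The Cy5 signal was 606 for Lgr6-high and 225 for Lgr5-high. All 4 signals were above background, and within each dye the Lgr6-high cells were the brighter. The log2 ratio was 2.73 on array 1 and 2.46 on array 2, a mean of 2.60 ± 0.19 or 6.04-fold.

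The other probe that the array files name for Pmp22 showed nothing. It lies on the opposite strand and shares no listed transcript with A_51_P258529, so it does not bear on that transcript. At A_52_P1067763 the Cy3 signals were 82.1 for Lgr6-high and 91.2 for Lgr5-high, and the Cy5 signals 148 and 145. All 4 lay at background, and its ratios of 0.10 and 0.06 describe background.

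Mbp differed at 1 of its 3 probes. A_52_P604195, on transcript variant 8, gave a Cy3 signal of 1104 for Lgr6-high and 125 for Lgr5-high. In Cy5 it gave 243 for Lgr6-high and 161 for Lgr5-high, and only the latter was not above background. The log2 ratio was 1.78 on array 1 and 1.92 on array 2, a mean of 1.85 ± 0.10. On array 2 the Lgr5-high side of this ratio is a background signal with the offset added, so its size and the SD depend on that offset, and no fold is given.

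Both variant 7 probes of Mbp lay at background in the 2 populations. At A_52_P329451 the Cy3 signals were 93.5 for Lgr6-high and 99.4 for Lgr5-high, and the Cy5 signals 156 and 152. A_51_P349205 is printed in 10 spots per array, of which 9 were usable on array 1, and none was above background for either population. Its mean Cy3 signals were 95.6 for Lgr6-high and 91.9 for Lgr5-high, and its mean Cy5 signals 151 and 152. The single spots had log2 ratios between -0.29 and 0.17 on array 1 and between -0.12 and 0.27 on array 2, on both sides of 0.

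Ngfr was higher in the Lgr6-high cells at its probe near the 3′ end of the transcript. A_52_P236448 is also printed in 10 spots, all usable on both arrays. In Cy3 the Lgr6-high signal had a lowest value of 748, a median of 917 and a highest of 971 over these spots. The Lgr5-high signal in the same dye had 157, 168 and 175. In Cy5 the Lgr6-high spots ran from 232 over 245 to 260, and the Lgr5-high spots from 163 over 173 to 187. Within each dye the spots of the 2 populations, which lie on different arrays, did not overlap. The 10 spots of an array hold the same RNA and are not replicates. The Lgr5-high cells were above background at 10 of 10 spots in Cy3 and at 5 of 10 in Cy5.

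The log2 ratio of A_52_P236448 was 1.43 on array 1 and 1.40 on array 2, a mean of 1.42 ± 0.02. On array 2 its mean Lgr5-high signal in Cy5 was 175.2, close to the highest negative control of 174 there. The size of the ratio and the SD of the arrays thus depend on the added offset, and no fold is given. Ratios of single spots ranged from 1.24 to 1.63 on array 1, with an SD of 0.13. On array 2 they ranged from 0.91 to 1.77, with an SD of 0.26. Spots of 1 array share the same RNA, so their spread is that of the print and scan. The array means lay closer together than the spots of either array.

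At the other Ngfr probe, A_51_P384968, the Cy3 signal was 133 for Lgr6-high and 102 for Lgr5-high, and the Cy5 signals were 160 and 158. Only the Lgr6-high Cy3 signal was above background, so the probe was not measured. Its ratios were 0.20 and 0.17, and by the scanner software 1.48 and 0.22. It shares 3 of its 4 listed transcripts with the probe that was called.

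S100b and Sox10 gave no measured ratio. The S100b probe had Cy3 signals of 111 for Lgr6-high and 146 for Lgr5-high, and Cy5 signals of 163 for both. Only the Lgr5-high Cy3 signal was above background. The ratios were -0.09 and 0.02, and by the scanner software 0.16 and -1.50. Sox10 was at background for both populations at both of its probes, with Cy3 signals between 96.2 and 109 and Cy5 signals between 154 and 158.

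**Figure D1:**
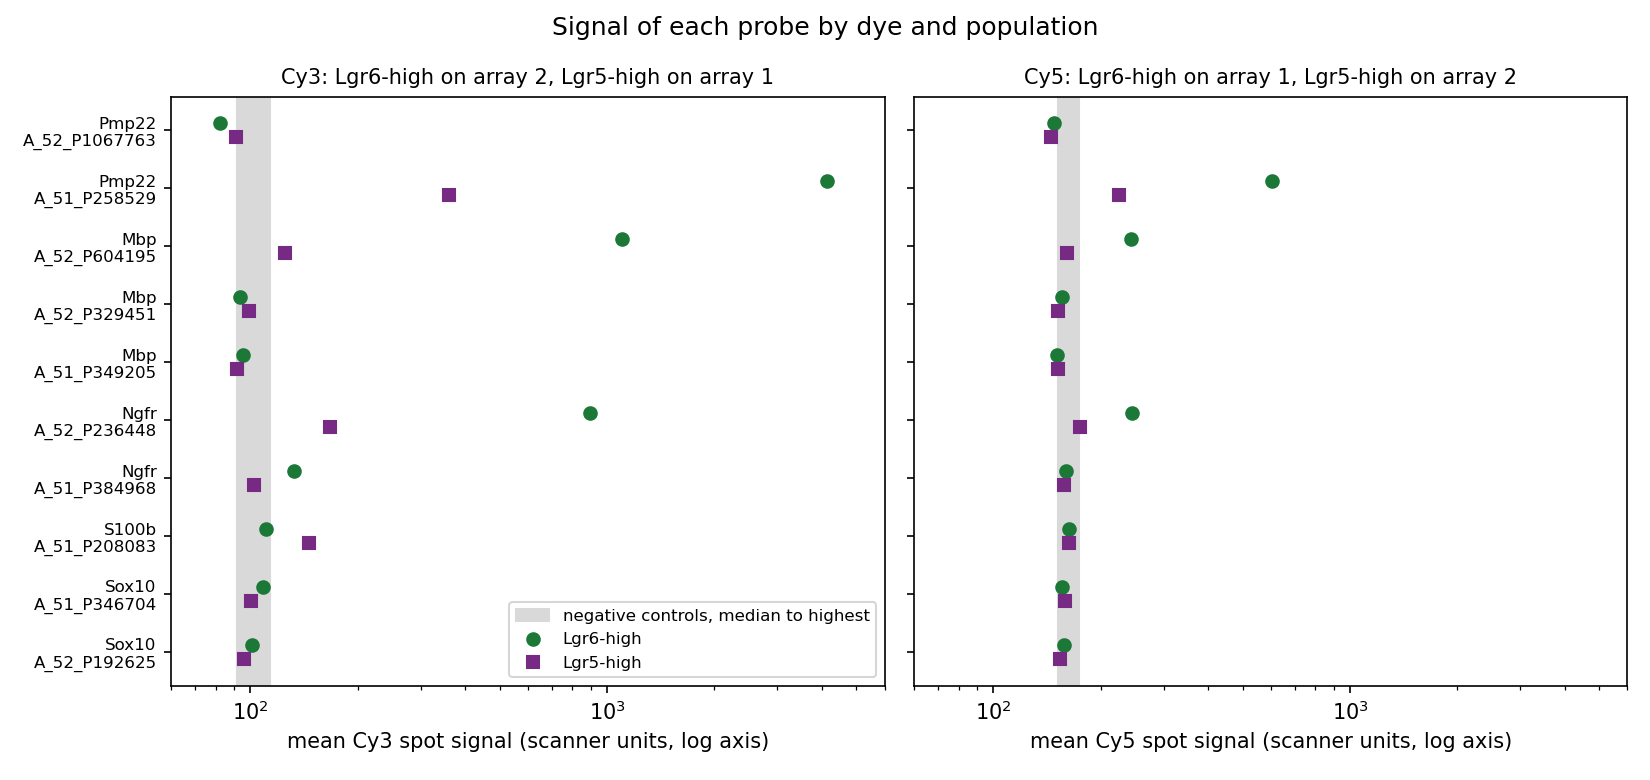
Mean spot signal (scanner units, log axis) of each of the 10 probes in Cy3 (left) and Cy5 (right), with Lgr6-high as green circles, Lgr5-high as purple squares and the negative controls, from the lowest array median to the highest spot, as a grey band. 3 probes stand out with Lgr6-high to the right of Lgr5-high in both dyes, at Cy3 signals of 4142, 1104 and 896 for Lgr6-high, and the others lie in or near the band.

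In all, 3 of the 10 probes were measured and called higher in Lgr6-high cells, 5 were at background in all 4 measurements and 2 were above background in 1 of 4. Across the array 7.22% of the 6195 genes were called higher in Lgr6-high cells and 4.79% in Lgr5-high cells, together 12.0%. The members were chosen by this same contrast, so nothing is read from their count against these shares. By the size of the mean log2 ratio toward Lgr6-high in this processing, Pmp22 ranked 55 and Ngfr 223 of 6195. Fewer cells of a type and less RNA per cell cannot be told apart in such pooled RNA.

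**Figure D2:**
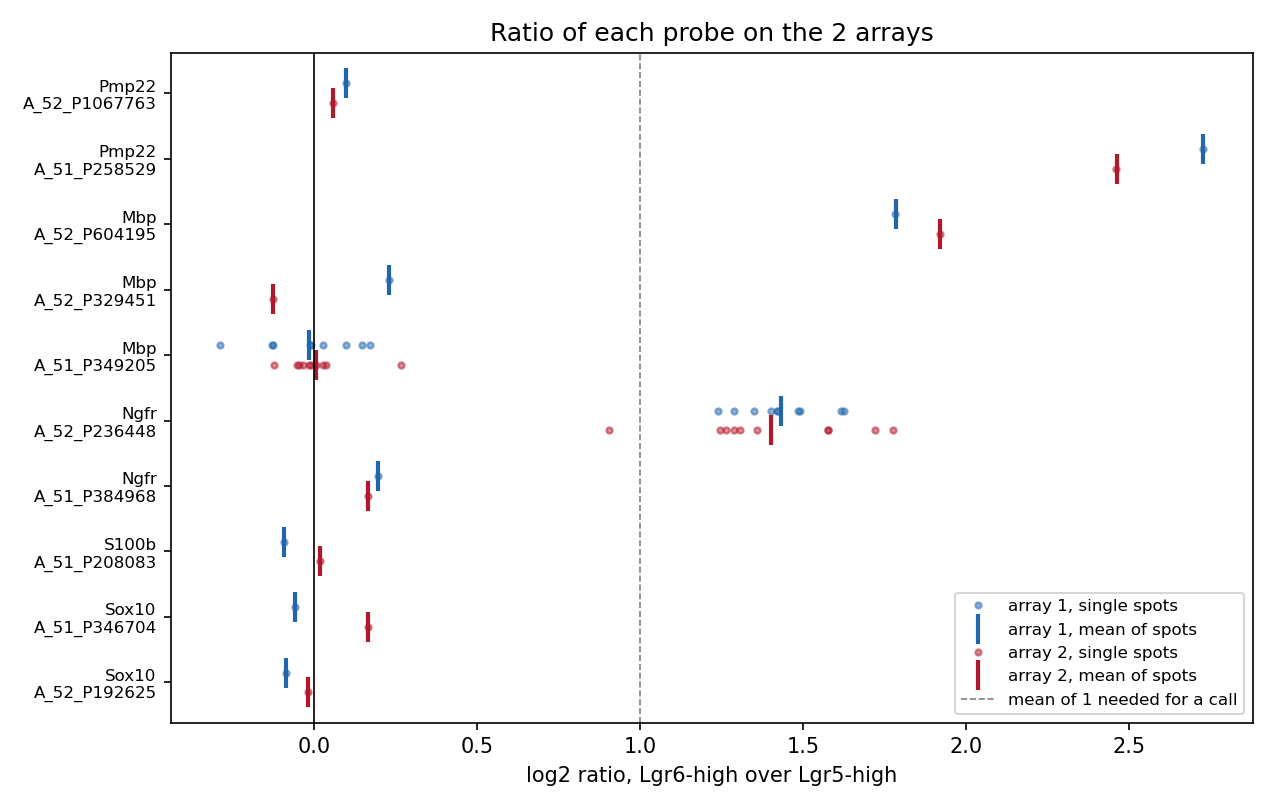
Log2 ratio of Lgr6-high over Lgr5-high for each of the 10 probes, with single spots as dots and their mean as a vertical mark, in blue for array 1 and red for array 2, and a dashed line at the mean of 1 that a call needs. On both arrays Pmp22 A_51_P258529, Mbp A_52_P604195 and Ngfr A_52_P236448 lie to the right of the line and the other 7 probes near 0.

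The size of these ratios depended on how the background was treated. With no background subtraction the mean log2 ratios fell to 2.03 for Pmp22, 1.17 for Mbp and 0.93 for Ngfr, which ended the call of Ngfr. With normexp fitted also on the spots that the scanner marked as outliers they were 1.77, 1.08 and 0.85, and the ratios of array 2 alone were 0.82, 0.37 and 0.27. That ended the calls of Mbp and Ngfr. With centring on the median in place of loess the arrays stood far apart, at 0.84 and 4.57 for Pmp22, 0.89 and 3.57 for Mbp, and 0.33 and 3.04 for Ngfr. The low value of array 1 ended the call of Ngfr there as well.

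The scanner software's own ratios were larger and close between the arrays, at 3.29 and 3.14 for Pmp22, 4.20 and 4.06 for Mbp, and 2.88 and 2.38 for Ngfr. The authors' deposited table holds the same values. By these ratios Mbp and not Pmp22 stood highest of the 3. A comparison within Cy3 alone, added after the data were seen, set Lgr6-high on array 2 against Lgr5-high on array 1. It gave 3.30 for Pmp22, 4.36 for Mbp and 2.82 for Ngfr after centring on the genes above background in all 4 measurements. Within Cy5 it gave 3.17 for Pmp22 and 2.51 for Ngfr, while Mbp was not above background for Lgr5-high. The direction was Lgr6-high in every one of these settings, whereas the order of Pmp22 and Mbp was not the same in all.

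**Figure D3:**
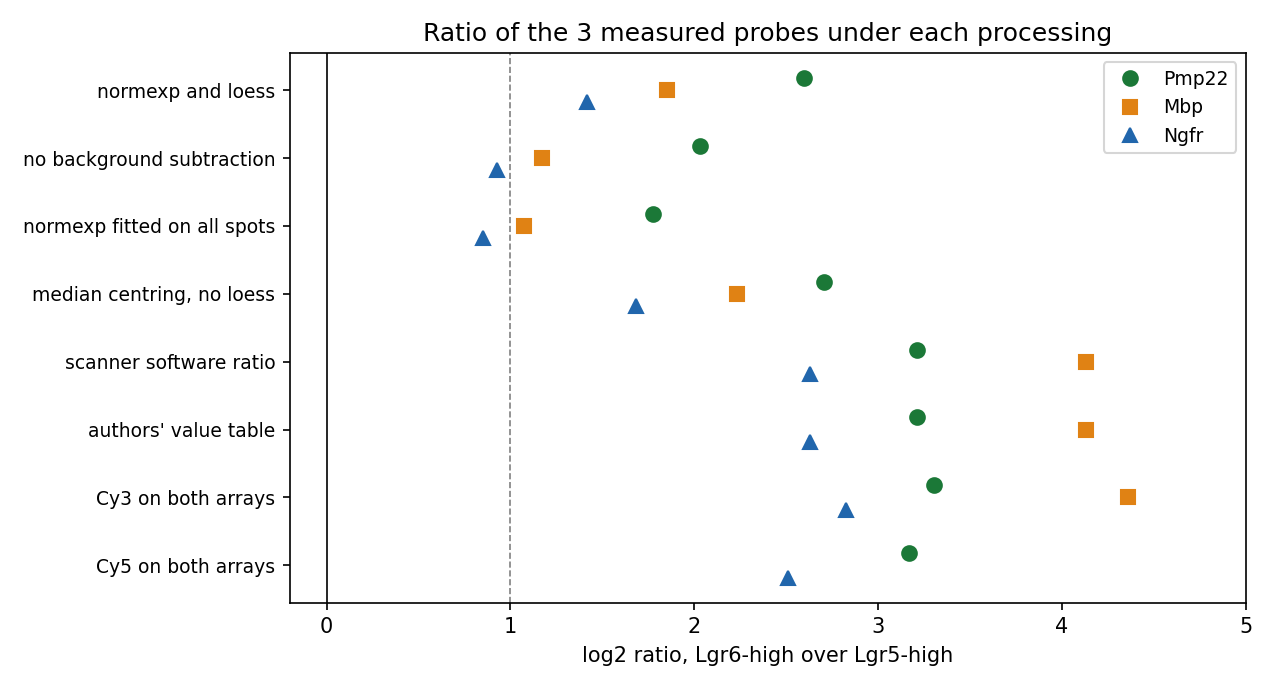
Mean log2 ratio of Lgr6-high over Lgr5-high of the measured Pmp22 (circles), Mbp (squares) and Ngfr (triangles) probes under each processing, with a dashed line at 1. Ngfr lies under the line at 0.93 and 0.85 without background subtraction and with normexp fitted on all spots, and Mbp passes Pmp22 in the scanner, authors' and Cy3 settings.

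Other genes of myelin and Schwann cells were mostly at background. Of 29 listed genes besides the 5, 19 were at background in all measurements, 4 were above it in part and 6 were measured. None of the 6 was called in either direction, and their median log2 ratio was 0.22, against -0.05 over all 6195 genes. Signals of genes are those of their brightest probe. Cnp, an enzyme of myelinating cells, had Cy3 signals of 103 for Lgr6-high and 107 for Lgr5-high, and Cy5 signals of 162 and 167. Over the 20 genes at background, Sox10 included, Cy3 signals ran from 78.6 to 119 for Lgr6-high, with a median of 100.3, and from 85.5 to 116 for Lgr5-high, with a median of 99.9.

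Among the 6 measured genes of this list, Egr2 and Erbb3 came closest to a call. Egr2, the zinc finger factor that drives myelination and is also made in the follicle, had Cy3 signals of 1900 for Lgr6-high and 566 for Lgr5-high. Its Cy5 signals were 324 and 268, and its log2 ratio was 0.94 ± 0.19. Erbb3, a neuregulin receptor, had Cy3 signals of 1662 and 526, Cy5 signals of 330 and 282, and a log2 ratio of 0.90 ± 0.15. Both were brighter for Lgr6-high in each dye. On array 2 alone Egr2 passed 1, at 1.07, and on array 1 alone Erbb3 did, at 1.01. By the scanner software's ratios they were called, at 1.19 and 1.13.

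The other 4 lay nearer to 0 or on the Lgr5-high side. Pou3f1, a POU factor of promyelinating Schwann cells and of keratinocytes, had a log2 ratio of 0.20 ± 0.39, and Mag, an adhesion protein of the inner myelin layer, 0.24 ± 0.31. Cadm4, an adhesion molecule of Schwann cells, gave -0.09 ± 1.03, with arrays at 0.64 and -0.82. Gfra3, the artemin receptor, gave -0.60 ± 0.10 and was called higher in Lgr5-high cells, at -1.65, only by the scanner software's ratios and the authors' table that repeats them.

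Above the negative control median, the summed Cy3 signal of the 29 genes was 19160 for Lgr6-high and 10640 for Lgr5-high, and the summed Cy5 signal 2320 and 2427. These sums are not normalised between the arrays. Pou3f1 alone had a Cy3 signal of 15280 for Lgr6-high and 9049 for Lgr5-high. The part of Schwann cells in the results for Pmp22, Mbp and Ngfr was not tested.

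Genes of neurons and axons were also at background, 18 of the 22 that have a probe, among them the neurofilament genes Nefl, Nefm and Nefh. Their Cy3 signals ran from 89.0 to 119 for Lgr6-high and from 88.7 to 113 for Lgr5-high. Only the tubulin Tubb3, at 0.27 ± 0.32, and the synapsin Syn1, at 0.38 ± 0.33, were measured, and neither was called. Syn1 was bright, with Cy3 signals of 2848 for Lgr6-high and 2877 for Lgr5-high.

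Neural crest genes gave 3 measured of 10, none of them called. Besides Erbb3 these were its partner receptor Erbb2, at 0.16 ± 0.04, and the transcription factor Tfap2a, at 0.24 ± 0.09. The endothelin Edn3 and the factors Tfap2b and Pax3 were at background. Of the Sox genes only Sox9, the follicle member of the family of Sox10, was measured, at -0.23 ± 0.38, while Sox8, Sox5 and Sox2 were at background.

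**Figure D4:**
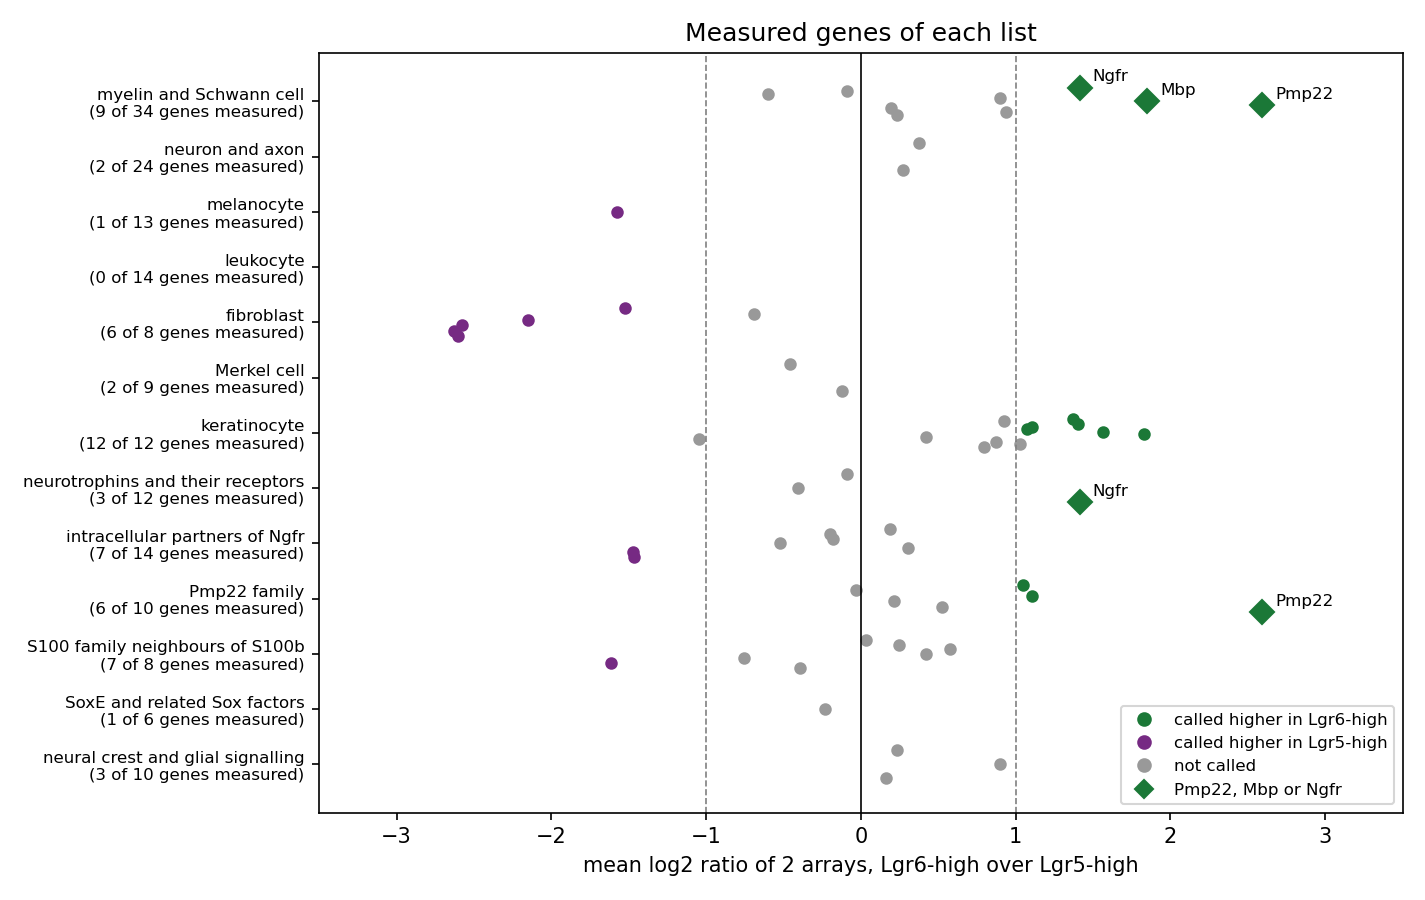
Mean log2 ratio (2 arrays) of each measured gene by list, coloured green where called higher in Lgr6-high, purple where called higher in Lgr5-high and grey where not called, with dashed lines at -1 and 1 and diamonds for Pmp22, Mbp and Ngfr. The genes drawn as diamonds were chosen by this same contrast, so nothing is read from their calls in the myelin list. None of its 6 other measured genes was called, against 12.0% of the 6195 genes in either direction. Of these 6, Egr2 (0.94) and Erbb3 (0.90) lay just under the line at 1 and were called by the scanner software's ratios. The neuron list holds 2 grey points.

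Neurotrophins and their receptors yielded 3 measured genes of 12. Ngfr, itself chosen by this contrast, was the only one called. Nradd, a receptor-like relative of Ngfr, stood at -0.09 ± 0.01 and the sortilin family member Sorcs2 at -0.41 ± 0.43. By the scanner software's ratios Sorcs2 was called higher in Lgr5-high cells, at -1.83. Sort1 and Sorcs3 of the sortilin family were at background.

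Of 14 listed partner genes of Ngfr, 7 were measured and 2 were called, both higher in Lgr5-high cells and thus opposite to Ngfr. Across the array 4.79% of the 6195 genes were called higher in Lgr5-high cells. Bex3, listed on the array as Ngfrap1 and named for its binding to the death domain of the receptor, had a Cy3 signal of 1431 for Lgr6-high and 2506 for Lgr5-high. Its Cy5 signals were 294 and 855, and its log2 ratio was -1.46 ± 0.25. Maged1, a MAGE family adaptor of the receptor, had a log2 ratio of -1.47 ± 0.26. Both calls ended with centring on the median in place of loess, with means of -1.41 and -1.42. The adaptors Traf2 (0.31 ± 0.06) and Traf4 (-0.53 ± 0.76, with -1.06 on array 1) and Arhgdia (-0.18 ± 0.33) were not called. The kinase Irak1 (-0.20 ± 0.19) and the zinc finger protein Prdm4 (0.19 ± 0.31) were not called either, and Traf6, Ripk2 and Rtn4r were at background.

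The list for Pmp22 holds its relatives and other proteins that span the membrane in a similar way. Besides Pmp22, 5 of 9 listed genes were measured, with a median log2 ratio of 0.52. Of these, 2 were called, both higher in Lgr6-high cells, against 7.22% of the 6195 genes. Perp, a desmosome protein of stratified epithelia, had 1.10 ± 0.57, with 1.51 on array 1 and 0.70 on array 2. Mall, a MAL family protein, had 1.05 ± 0.06, and neither array showed it above background for Lgr5-high. Its bound of at least 2.07-fold is that same mean ratio and holds for this processing only. Both calls ended without background subtraction, at 0.68 and 0.61, and with normexp on all spots, at 0.21 and 0.57. Centring on the median ended the call of Perp too, at a mean of 1.21.

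The closest relatives of Pmp22 were not called, and Emp3 among them was above background only in part and not measured. Its Cy3 signals were 118.9 for Lgr6-high and 182.5 for Lgr5-high, and its Cy5 signals 152.9 and 172.0. Emp1 stood at 0.52 ± 0.42 and Emp2 at 0.22 ± 0.19, and Plp2, another membrane-spanning protein, at -0.03 ± 0.41. Lim2, a lens protein, and Mal, a protein of myelin and apical membranes, were at background.

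All 7 listed relatives of S100b were measured, and S100a4 was the only one called, higher in Lgr5-high cells at -1.62 ± 0.63. That call ended with median centring, at a mean of -1.55. S100a1 (-0.40 ± 0.16), S100a6 (-0.76 ± 1.23, with -1.63 on array 2), S100a10 (0.42 ± 0.43), S100a11 (0.58 ± 0.21), S100a13 (0.25 ± 0.22) and S100a16 (0.04 ± 0.41) were not called. S100a1 was called by the scanner software's ratios, at -1.14.

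Markers of other skin cells were set beside these values. Across the array 7.22% of the 6195 genes were called higher in Lgr6-high cells. All 12 keratinocyte genes were measured and 6 were called, each higher in Lgr6-high cells, the direction of Pmp22, Mbp and Ngfr. These were the cadherin Cdh1 (1.83 ± 0.46), the integrins Itga6 (1.57 ± 0.33, called at 1 of its 2 measured probes) and Itgb4 (1.08 ± 0.17, with 0.95 on array 2), Perp, the desmoplakin gene Dsp (1.41 ± 0.49) and the stratifin gene Sfn (1.37 ± 0.38). Their count fell to 3 without background subtraction, to 2 with normexp on all spots and to 0 with median centring, and was 10 with the scanner software's ratios. With median centring the mean ratios were no smaller, at 1.95 for Cdh1, 1.66 for Itga6, 1.13 for Itgb4, 1.21 for Perp, 1.51 for Dsp and 1.47 for Sfn, but on 1 array each lay under 0.5. Not called were the keratins Krt5 (0.79 ± 1.50), Krt14 (1.03 ± 1.75), Krt15 (0.87 ± 1.56) and Krt17 (-1.04 ± 1.93), Trp63 (0.42 ± 0.34), a transcription factor of basal keratinocytes, and the plakoglobin gene Jup (0.93 ± 0.01). The arrays differed widely for these keratins, with Krt14 at 2.27 on array 1 and -0.21 on array 2, and Krt17 at 0.32 and -2.41. The summed Cy3 signal of the 12 genes was 558200 for Lgr6-high and 268800 for Lgr5-high, and the summed Cy5 signal 80560 and 75710. These sums, too, are not normalised between the arrays.

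Fibroblast genes went the other way. Of 8 listed, 6 were measured. Against 4.79% of the 6195 genes, 5 of them were called higher in Lgr5-high cells. These were Col1a1 (-2.61 ± 0.34, called at 1 of its 2 measured probes), Col1a2 (-2.63 ± 0.23), Col3a1 (-2.58 ± 0.56), Dcn (-2.15 ± 0.54) and Fbln1 (-1.53 ± 0.04). Lgr6-high signals of Col3a1 and Dcn were at background, which puts them at least 5.28-fold and 4.14-fold lower there in this processing. Lum was likewise at background in Lgr6-high cells and at least 1.57-fold lower there in this processing. It was not called, at -0.69 ± 0.18, but was called at -3.20 by the scanner software's ratios. With normexp on all spots 2 of the 5 calls remained, those of Col1a1 and Col1a2, while Col3a1 stood at -1.31 and Dcn at -1.05. Median centring ended the call of Fbln1, at a mean of -1.53. The summed Cy3 signal of the list was 542 for Lgr6-high and 5410 for Lgr5-high, and the summed Cy5 signal 54.7 and 1074.

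Melanocytes share S100b and Sox10 with Schwann cells. Of 11 further melanocyte genes 8 were at background, among them Mitf, Tyr and Tyrp1, and Dct, an enzyme of melanin synthesis, was the only one measured. It was at background in Lgr6-high cells, and in this processing Lgr5-high cells had at least 2.94 times as much. Its log2 ratio was -1.58 ± 0.15. The call ended without background subtraction, at -0.93, and with normexp on all spots, at -0.82. The summed Cy3 signal of the 11 genes was 94.8 for Lgr6-high and 501 for Lgr5-high, and the summed Cy5 signal 26.7 and 89.4.

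Of 14 leukocyte genes none was measured, and 11, among them Ptprc, Cd52 and Lyz2, were at background in all measurements. Merkel cell genes gave 2 measured of 9, Krt8 at -0.12 ± 0.39 and Krt18 at -0.46 ± 0.19, neither of them called, though the scanner software's ratios called Krt18 at -1.04, while Krt20, Atoh1 and Isl1 were at background. The part of these cell types in the ratios of Pmp22, Mbp and Ngfr was not tested.

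The reporter genes were checked on the same arrays. Lgr5 was higher in the Lgr5-high cells at 1 of its probes, with a log2 ratio of -1.83 ± 0.12, and at background at the other. Neither Lgr6 probe was measured, so Lgr6 gave no check of its label. Over all genes the split of calls was 447 higher in Lgr6-high against 297 in Lgr5-high cells, or 60.1% toward Lgr6-high. It was 209 against 209 without background subtraction, 124 against 159 with normexp on all spots, 134 against 57 with median centring and 958 against 958 with the scanner software's ratios or the authors' table.

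By the distance between their log2 ratios on the 2 arrays, the genes nearest to Pmp22 were the protease gene Ctsh (2.72 and 2.50), the antiproliferative gene Btg2 (2.68 and 2.55) and the keratinocyte chemokine Ccl27a (2.66 and 2.54). Nearest to Mbp were the adaptor Bcar1 (1.79 and 1.96), Dapl1 (1.84 and 1.94) and the transaminase gene Gpt (1.73 and 1.88). Nearest to Ngfr were Rgcc (1.42 and 1.42), Ndel1 (1.40 and 1.41) and the ubiquitin ligase gene Fbxo32 (1.47 and 1.45). The likeness rests on 2 arrays of 1 replicate, and 2, 6 and 5 genes lay within a distance of 0.1 of Pmp22, Mbp and Ngfr.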

How the data were processed

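For each array the authors deposited a scanner table, which holds the intensity of every spot and of its surroundings on a linear scale in Cy3 and Cy5, and the software's log10 ratio of Cy5 over Cy3. Per the file headers these came from Agilent Feature Extraction 10.5.1.1, while the submitters' processing notes name 9.5.3. The deposited value table repeats the log10 ratios, turned on array 2 so that Lgr6-high is always the numerator, with a median of 0 in each column. Its scale, centring and direction are thus known. Probe positions are those of build mm9.

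Mean signals were corrected with limma 3.58.1 in R 4.3.3 (normexp, offset 50) and normalised by loess, with control spots at weight 0. Of 43379 probe spots, 139 and 204 marked as outliers on arrays 1 and 2 were left out, also from the normexp fit, a choice made after seeing the data that differs from the tool's default. No spot was saturated. The offset lowers the ratio of dim probes. Spots of a probe were averaged, and each gene was represented by its brightest passing probe. Genes were named through a RefSeq table by accession (25097 probes), symbol (6333) or synonym (1640), by the file's name (1696) or not (6408). The procedure was tested on simulated data.

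The arrays are few and hold 1 replicate, which limits the precision, and calls were made by size with no test. As an alternative rule limma's fit on the 2 arrays, with Benjamini-Hochberg adjustment at 0.05 and a 2-fold minimum, called 457 genes toward Lgr6-high and 305 toward Lgr5-high, where p reflects nothing but how far the hybridisations differ. Other alternatives changed the background correction, the normalisation, the filter, the source of the ratio and the arrays used. A bound ("at least") sets the bright population's mean level after scaling between arrays (Aquantile) against the lowest level above background, or the dim probe's own if higher. It is open to dye bias only as far as the swap does not balance it. It holds for the main processing only. Where the dim probe's own level is used on both arrays, it equals the mean ratio.

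Every probe of the 5 genes is named. From the lists, every called or measured gene is named and up to 3 at background, in list order, except some that are not reported here. For each measured gene the 3 with the nearest ratios are named. The members and lists were chosen with earlier results of these data known.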

Additional observations from a re-analysis of the deposited data

Results flagged for a closer look

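A pair of signals stood above background at probes that entered no comparison, because only 1 of their 4 measurements was above it. Ngfr probe A_51_P384968 had a Cy3 signal of 132.8 for Lgr6-high on array 2, against a highest negative control of 114 there. The S100b probe had a Cy3 signal of 146.2 for Lgr5-high on array 1, against a highest negative control of 108. Cy5 signals of the same populations on the other array, 160 and 163, were not above background.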

How the results depend on the processing

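At the 3 measured probes, 1 each of Pmp22, Mbp and Ngfr, the mean log2 ratio kept its sign under every alternative run. Ratios of the 5 probes at background in all measurements lay around 0 and had no stable sign. Ngfr probe A_51_P384968, not measured, stayed positive, between 0.04 and 0.849. Without background subtraction the 3 measured probes had 2.032, 1.172 and 0.925, and with normexp fitted on all spots 1.773, 1.075 and 0.85. With the scanner software's ratios or the authors' values they had 3.213, 4.131 and 2.629. Median centring gave 2.231 for Mbp and 1.681 for Ngfr. Cy3 on both arrays gave 3.303, 4.358 and 2.823, and Cy5 3.168 for Pmp22 and 2.508 for Ngfr, both chosen after seeing the data. Without replicate 1 or 2 the ratios were 2.46 or 2.73 for Pmp22, 1.92 or 1.78 for Mbp and 1.40 or 1.43 for Ngfr. The number of genes called was 744, against 418 without background subtraction, 283 with normexp on all spots, 191 with median centring, 1916 with the scanner software's ratios or the authors' table, and 1091 or 748 with array 2 or array 1 alone. In the myelin list, the 5 genes included, the 3 genes higher in Lgr6-high cells became 1 with normexp on all spots and 5 with the scanner software's ratios or the authors' table, where 1 was higher in Lgr5-high cells in place of 0. The cause of these changes was not tested. Of all values under the alternatives, 296 stayed the same by the spread of 2 arrays or within 1.5 times a count, and 76 moved. The 296 include counts that stayed at 0. They also include probe ratios of 1 array alone, which always lie within the SD of both arrays and so could not move. At the 3 measured probes each change of processing moved the mean ratio, except median centring for Pmp22. No paired analysis was possible because the replicate numbers name the 2 arrays of 1 group, and each ratio is already the difference of both populations within an array. Dim signals limit the precision: Mbp was above background for Lgr5-high on 1 array only.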

Other observations

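Among genes of the neurotrophin list without a measured ratio, 2 are given here that were above background for Lgr6-high cells in Cy3 and in none of the other measurements at their brightest probe. They were singled out after their values were seen. There Ntrk2, the receptor of brain-derived neurotrophic factor, had a Cy3 signal of 215 for Lgr6-high and 99.6 for Lgr5-high and Bdnf 166 and 103. Their Cy5 signals lay between 150 and 162 for both populations, where negative controls reached 169 and 174. Sox6, a relative of Sox10 chosen in the same way, had Cy3 signals of 312 and 95.8 and Cy5 signals of 169 and 146. Over the 4483 genes above background in all 4 measurements, the same Cy3 comparison had a median log2 ratio of 0.61 toward Lgr6-high. The ratio of these genes was not measured in both dye orientations.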
